A study of Mus musculus with 2 samples.

Results

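Among 5761 mouse embryonic fibroblasts, the 576 cells with the highest Acta2 level were compared with the 576 cells with the lowest. Acta2 encodes smooth muscle alpha-actin, the actin isoform by which myofibroblasts are usually recognised. A cell was kept if it held at least 5000 unique molecular identifiers (UMIs, 1 for each captured RNA molecule), at least 500 genes and at most 20% mitochondrial UMIs. Cells were then chosen by their Acta2 level, as UMIs of Acta2 over all UMIs of the cell, scaled as counts per 1e6 UMIs (CPM), and the highest 10% and the lowest 10% were taken. They are called Acta2-high and Acta2-low cells. The series holds 15504 cells kept by the same limits, of which 9743 came from a second library. Because Acta2 chose the cells, its own level is given only as a description: the last cell inside the highest 10% stood at 14721.9 CPM and the first outside it at 14720.2 CPM. The edge of the lowest 10% lay at 119.918 CPM inside and 120.173 CPM outside. Medians were 20278 CPM in Acta2-high cells, 63.1 CPM in Acta2-low cells and 3505 CPM over all kept cells, with a range of 0 to 60546 CPM. Levels were continuous across both edges, so the groups are the ends of a range. Of the Acta2-low cells, 171 (29.7%) had no Acta2 UMI.

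Both libraries came from cells with the genotype Tg:Pax7-nGFP/C57BL6;DBA2, so every cell compared here carries the Pax7 reporter. The MEF library held fibroblasts kept in MEF media, for which the labels give neither the number of embryos nor the passage. The second library held induced myogenic progenitor cells (iMPC), derived from such fibroblasts with MyoD and a treatment the labels call F/R/C, and the series describes them as a stable clone. Each culture was measured in 1 library with the 10x Genomics 3′ assay, which counts molecules at the 3′ end of transcripts. Cells of 1 library are not replicates. All values therefore describe this culture with no test, and every interval is an exact 95% interval that covers counting error only.

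Myofibroblasts are fibroblasts that have built contractile actin bundles and large focal adhesions and that deposit collagen, as in wound closure and fibrosis. Embryonic fibroblasts on plastic commonly take on part of this program. Serum response factor (SRF), held in check by unpolymerised actin through its cofactors of the MRTF family, drives many of these genes by binding the CArG box, and TGF-beta and the mechanically regulated YAP and TEAD proteins act beside it.

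Acta2-high cells differed from Acta2-low cells in depth and composition, and the part of these differences in the results was not tested. The MEF library held 118541302 UMIs. Acta2-high cells had a median of 21452 UMIs and 4361 genes, against 17057 UMIs and 4038 genes in Acta2-low cells. The median mitochondrial share was 5.09% against 7.06%, and the median share of ribosomal protein genes was 16.8% against 21.3%. When the highest and lowest 10% were taken within 5 bins of UMIs per cell, the contractile genes described next gave a median log2 ratio of 2.96, close to the 2.95 without bins. Of the 15 cell barcodes that both libraries shared, 1 was in an Acta2-high cell and 0 were in Acta2-low cells.

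UMIs were summed over the cells of a group and divided by the group total. Of the genes with at least 10 CPM over all kept MEF cells, 7600 were compared after leaving out Acta2. A gene was counted as higher or lower when the group levels differed at least 1.5-fold, and single genes are described by log2 ratios of Acta2-high over Acta2-low cells. By that rule 879 genes (11.6%) were higher in Acta2-high cells and 1176 (15.5%) were lower, together 27.0%, and the median log2 ratio over all 7600 was -0.08. A ratio above 1 of any size was found for 3271 genes (43.0%). Higher genes made up 42.8% of these counts. With a total that leaves out Acta2, mitochondrial and ribosomal protein genes, 819 were higher and 1815 lower, a share of 31.1%, and the median of all genes moved to -0.19. The ranking by Acta2 sets these counts in part, and nothing is read from them beyond the sizes of single genes and lists.

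The contractile genes were higher almost without exception. A list of 22 contractile and actin-binding genes of smooth muscle and myofibroblasts had 20 members above the level limit, of which 19 were at least 1.5-fold higher in Acta2-high cells and 0 were lower. The median log2 ratio of the 20 was 2.95. The remaining passing member, the non-muscle myosin heavy chain Myh9, stood at 438 against 293 CPM (log2 ratio 0.58). Tagln (transgelin, an actin-bundling protein; ENSMUSG00000032085, chr9:45929619-45936058, minus strand) stood at 10942 CPM in Acta2-high and 184 CPM in Acta2-low cells (log2 ratio 5.89, 5.83 to 5.96). Cnn1 (calponin, which restrains myosin on actin filaments; ENSMUSG00000001349, chr9:22099216-22109630, plus strand) stood at 748 CPM and, with 26 UMIs, at 2.51 CPM (log2 ratio 8.22, 7.67 to 8.83). Tagln overlaps Pcsk7 on the opposite strand, and whether the counting used strand is not given in the sources used here. Tagln and Cnn1 are markers given for myofibroblast-like cells together with Acta2. Since Acta2 itself made the groups, only these 2 markers bear on that name, and the cells are called here by their rule.

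Genes of the mature smooth muscle apparatus were among the largest ratios. Myh11 (smooth muscle myosin heavy chain; ENSMUSG00000018830, chr16:14194535-14291372) stood at 193 CPM in Acta2-high cells and at 0.386 CPM, from 4 UMIs, in Acta2-low cells. Its log2 ratio of 8.96 has a wide interval, 7.60 to 10.84. Actg2 (smooth muscle gamma-actin, typical of gut and bladder; ENSMUSG00000059430, chr6:83512905-83536265) stood at 1796 against 5.79 CPM (log2 ratio 8.28, 7.91 to 8.67). Myl9, the regulatory light chain that myosin light chain kinase phosphorylates (ENSMUSG00000067818, chr2:156775420-156781658), stood at 2141 against 51.1 CPM (5.39). The kinase itself, Mylk, stood at 49.0 CPM against 2.22 CPM (log2 ratio 4.46), and Lmod1, which nucleates actin filaments in smooth muscle, at 246 CPM against 6.56 CPM (5.23). The tropomyosins Tpm1 and Tpm2, which line actin filaments, stood at 5299 against 873 CPM (2.60) and at 2894 against 362 CPM. At the lower end lay Cald1 (caldesmon, 1.17), Pdlim7 (1.72), Actn1 (alpha-actinin, 1.80) and Smtn (smoothelin, 1.82). The 2 members under the level limit also had more UMIs in Acta2-high cells, with 176 against 15 for Synpo2, whose gene overlaps another on the same strand, and 78 against 2 for the intermediate filament gene Des.

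The promoters of this gene class are known for the CArG box, so the 250 bases before each RefSeq transcription start (GRCm38.p6) were searched for it on both strands. The windows of 6 genes that differ between the groups and hold an exact box are printed here 5′ to 3′ on the coding strand, with the box in capitals: the contractile genes Myl9 and Cnn2, the focal adhesion gene Vcl, the LIM-domain gene Fhl1, the skeletal actin gene Acta1, and Srf itself, which holds 2 boxes.
Myl9 promoter: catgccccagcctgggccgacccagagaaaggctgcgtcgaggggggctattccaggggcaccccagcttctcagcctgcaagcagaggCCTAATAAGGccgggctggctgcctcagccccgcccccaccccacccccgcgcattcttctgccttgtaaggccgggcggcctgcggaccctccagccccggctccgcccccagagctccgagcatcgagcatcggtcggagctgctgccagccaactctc
Cnn2 promoter: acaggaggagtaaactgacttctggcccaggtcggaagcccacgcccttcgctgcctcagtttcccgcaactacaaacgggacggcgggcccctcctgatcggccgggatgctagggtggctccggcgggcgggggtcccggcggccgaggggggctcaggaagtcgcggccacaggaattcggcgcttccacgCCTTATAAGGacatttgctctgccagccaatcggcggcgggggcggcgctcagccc
Vcl promoter: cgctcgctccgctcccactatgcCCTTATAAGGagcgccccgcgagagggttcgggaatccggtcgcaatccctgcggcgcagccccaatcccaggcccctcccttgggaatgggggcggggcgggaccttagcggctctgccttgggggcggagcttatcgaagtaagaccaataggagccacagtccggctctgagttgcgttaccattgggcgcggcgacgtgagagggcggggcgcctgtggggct
Fhl1 promoter: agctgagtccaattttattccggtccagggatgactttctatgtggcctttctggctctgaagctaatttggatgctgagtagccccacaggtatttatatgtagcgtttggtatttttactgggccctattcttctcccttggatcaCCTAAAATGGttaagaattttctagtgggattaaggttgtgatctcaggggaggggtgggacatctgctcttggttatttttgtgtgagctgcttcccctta
Acta1 promoter: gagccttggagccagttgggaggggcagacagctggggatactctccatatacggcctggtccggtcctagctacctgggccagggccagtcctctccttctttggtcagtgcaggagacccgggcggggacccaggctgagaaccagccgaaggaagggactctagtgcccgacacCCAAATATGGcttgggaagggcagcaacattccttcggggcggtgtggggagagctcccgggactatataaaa
Srf promoter: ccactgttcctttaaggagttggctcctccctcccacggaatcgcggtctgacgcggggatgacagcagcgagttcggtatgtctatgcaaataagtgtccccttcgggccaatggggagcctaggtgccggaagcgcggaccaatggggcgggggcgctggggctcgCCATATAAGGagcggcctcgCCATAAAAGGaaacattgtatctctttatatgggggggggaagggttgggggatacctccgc
The first base of the box lay 161 bases before the start in Myl9 (plus strand, chr2:156775214-156775463), 56 in Cnn2 (plus strand, chr10:79988350-79988599) and 227 in Vcl (plus strand, chr14:20929148-20929397). It lay 102 bases before the start in Fhl1 (plus strand, chrX:56779433-56779682) and 73 in Acta1 (minus strand, chr8:123894776-123895025), and the boxes of Srf (minus strand, chr17:46556163-46556412) began at 82 and 62.

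An exact CArG box was found in 439 of 27025 genes with a window (1.62%). It was found in 3 of the 19 contractile genes with a window (Cnn2, Myl6 and Myl9), in 2 of 17 focal adhesion genes (Fermt2 and Vcl), in all 3 other actins with a window (Acta1, Actc1 and Actg1) and in 3 of 7 SRF-related genes (Fhl1, Fhl2 and Srf). Among the compared genes with a window, 27 of 683 (3.95%) that were higher in Acta2-high cells held a box, against 4 of 908 (0.441%) that were lower and 87 of 6102 (1.43%) of all. The Cnn1 and Acta2 windows held no exact box, and Tagln, Actg2 and Myh11 were not matched in the RefSeq table. The MCAT motif CATTCC, which TEAD proteins bind, was searched on both strands as well, and it overlapped an exact CArG box in 4 genes, none of them contractile. It was found in 8 of the 19 contractile genes, against 14.4% of all windows, 15.5% of those of higher genes and 12.4% of those of lower genes. A match describes the letters of these windows and not a bound site.

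**Figure D1:**
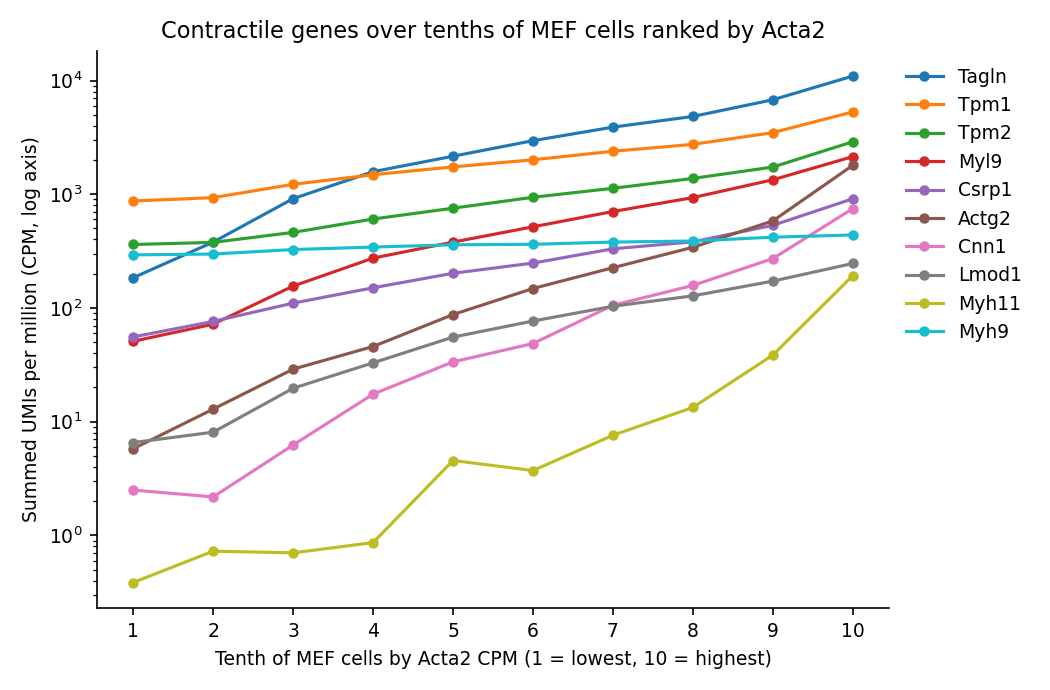
Level of 10 contractile genes in 10 bins of MEF cells ordered by Acta2 (x axis, bin 10 the Acta2-high cells), as CPM of summed UMIs (y axis, log scale); each point is 1 bin of 576 or 577 cells. Tagln and Actg2 were higher at each of the 9 steps, and Myh11 stood at 38.5 CPM in bin 9 and 193 CPM in bin 10.

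Between the ends, most contractile genes rose with Acta2 across the bins. From bin 9 to bin 10, Cnn1, Actg2 and Myh11 rose by a larger factor than Tagln, Myl9 and Tpm1. The kept cells were put into 10 bins of Acta2, bin 10 being the Acta2-high cells. Tagln was higher at each of the 9 steps, from 184 CPM in bin 1 to 379 CPM in bin 2 and 915 CPM in bin 3. It stood at 2159 CPM in bin 5, 6771 CPM in bin 9 and 10942 CPM in bin 10, so its first steps were larger in ratio than its last. Myl9, Tpm1, Tpm2, Csrp1, Lmod1 and Actg2 were also higher at all 9 steps. The last step, from bin 9 to bin 10, was 1.62-fold for Tagln, 1.60-fold for Myl9 and 1.52-fold for Tpm1. It was 1.43-fold for Lmod1 and 1.55-fold for Smtn. It was 2.75-fold for Cnn1 and 3.08-fold for Actg2, and Myh11 went from 38.5 to 193 CPM. Mylk went from 21.6 to 49.0 CPM and Des from 9 to 78 UMIs. Cnn1 was higher at 8 of 9 steps and Myh11 at 7 of 9. At low levels Cnn1 also had a large early step, from 2.18 CPM in bin 2 to 6.23 CPM in bin 3. Against all other MEF cells in place of the lowest 10%, the median log2 ratio of the contractile list was 1.64, with 2.01 for Tagln, 3.32 for Cnn1, 3.39 for Actg2 and 4.56 for Myh11.

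**Figure D2:**
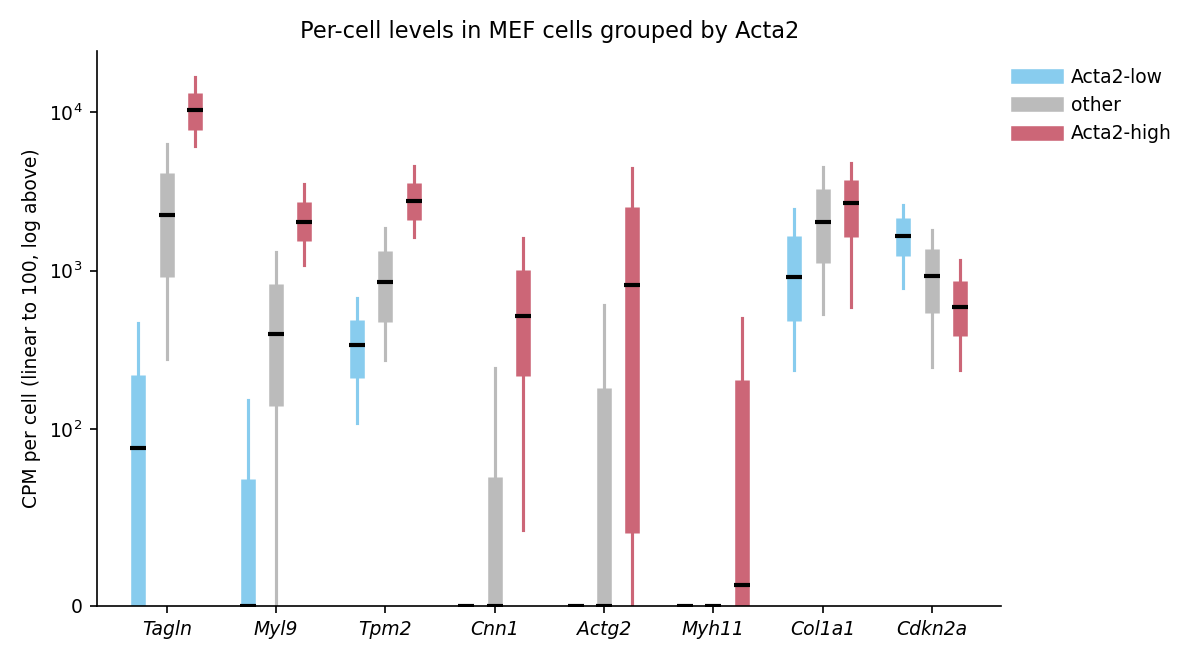
CPM per cell (y axis, linear up to 100 and log above) of 8 genes in Acta2-low, other and Acta2-high MEF cells. Black marks are medians, thick bars reach from the 25th to the 75th percentile of cells and thin bars from the 10th to the 90th; the Tagln bars of Acta2-high and Acta2-low cells do not overlap, while those of Col1a1 do.

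Cell by cell, UMIs of Tagln and Myl9 were found in every Acta2-high cell and those of Cnn1, Actg2 and Myh11 in part of them. A gene of low level can be missed in a cell at this depth, so a cell with 0 UMIs need not lack the transcript. Tagln ran from 1767 to 30482 CPM in Acta2-high cells with a median of 10282 CPM, and from 0 to 5531 CPM in Acta2-low cells with a median of 89.2 CPM. The ranges overlapped, but 93.6% of Acta2-high cells lay above the highest Acta2-low cell. For Myl9 this share was 93.1%, and for Tpm1 66.3%. Cnn1 ran from 0 to 5373 CPM with a median of 514 CPM in Acta2-high cells, of which 9.03% had no Cnn1 UMI, against 97.0% of Acta2-low cells. Actg2 was without a UMI in 23.4% and Acta1 in 57.1% of Acta2-high cells, and Myh11 in 288 of the 576. These shares did not follow group level alone. Actg2 stood at 1796 CPM in Acta2-high cells, near Myl9 at 2141 CPM. Acta1 stood at 370 CPM with a UMI in 42.9% of Acta2-high cells, and Lmod1 at 246 CPM with a UMI in 84.4%. After every cell was thinned to 5000 UMIs, a Cnn1 UMI was found in 78.1% of Acta2-high cells (74.5% to 81.4%) and 1.04% of Acta2-low cells (0.383% to 2.25%). For Myh11 the shares were 33.2% (29.3% to 37.2%) and 0.347% (0.0421% to 1.25%), and for Actg2 69.3% and 4.69%. No cell type of this culture is known to lack these genes, so the background from free RNA was not measured, and the shares in Acta2-low cells hold it.

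Acta2-high cells with and without a Myh11 UMI also differed in some other contractile genes. The 288 cells with a Myh11 UMI had a median of 23159 UMIs and the 288 without one 19084 UMIs, so part of this split follows depth. Mylk was higher in the former by a log2 ratio of 2.23 (1.90 to 2.57), Actg2 stood at 2414 against 1010 CPM and Cnn1 at 959 against 479 CPM. Tagln differed less, at 11926 against 9693 CPM (0.30), as did Lmod1 (0.23) and Smtn (0.50, 0.20 to 0.80). The eosinophil-attracting chemokine Ccl11 went the other way, at 6.51 CPM against 66.7 CPM. The pairing of Actg2 and Myh11 was loose: 236 cells had UMIs of both, 205 of Actg2 alone, 52 of Myh11 alone and 83 of neither. Over the 576 thinned Acta2-high cells, Tagln correlated across cells with Myl9 (Spearman's rho 0.46), Tpm2 (0.46) and Cnn1 (0.42) and inversely with Col1a1 (-0.28). These cells share 1 library and 1 ranking. They include 62 cells with under 2000 genes, which had more Tagln than the remaining Acta2-high cells (16000 against 10738 CPM). The 62 also had more Myl9 (3161 against 2100 CPM) and Tpm2 (3984 against 2850 CPM). Cnn1 (663 against 751 CPM) and Col1a1 (325 against 2956 CPM) were lower in them. Their part in these correlations was not tested. The split and these correlations were chosen after levels had been seen.

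Of the other actins, all 3 that passed the level limit were higher. Actb and Actg1, the cytoplasmic actins, stood at 16147 against 3586 CPM (log2 ratio 2.17) and at 6136 against 2562 CPM (1.26). Acta1, the skeletal muscle actin, stood at 370 against 5.98 CPM (5.95). Cardiac actin Actc1 had 7 against 3 UMIs. Actin genes have similar sequences, between which reads can be divided, so levels of single actins are uncertain. No skeletal muscle regulator accompanied Acta1: Pax7, Myf5, Myod1 and Myog had 0 UMIs in both groups.

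Focal adhesion genes were higher in most cases. Of 20 genes of the list, 19 passed the level limit, 16 were at least 1.5-fold higher, 2 were lower, and the median log2 ratio was 1.39. Lims2, which binds integrin-linked kinase, stood at 52.1 CPM and, with 12 UMIs, at 1.16 CPM (log2 ratio 5.49, 4.68 to 6.45). The fibronectin receptor subunit Itga5 stood at 232 against 35.3 CPM (2.71), Vcl (vinculin) at 448 against 79.5 CPM (2.49) and Palld (palladin) at 527 against 106 CPM (2.31). The integrin subunit Itgb5 (-0.72) and Pxn (paxillin, -1.24) were lower, and Itgav differed little (0.05).

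Of 9 genes around SRF, 8 passed, 5 were higher and 1 was lower. Fhl1, a LIM-domain protein of stretched and growing muscle, stood at 706 against 11.5 CPM (log2 ratio 5.94, 5.68 to 6.22). Srf stood at 18.1 against 7.14 CPM (1.34) and the kinase Rock2, which activates myosin downstream of Rhoa, at 390 against 156 CPM (1.32). The SRF cofactor Mrtfb was lower, at 18.8 against 32.9 CPM (-0.81). Mrtfa, whose gene overlaps another on the same strand, stood at 13.7 against 12.4 CPM. Myocd, the cofactor that defines smooth muscle, had 3 UMIs in Acta2-high and 0 in Acta2-low cells.

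Targets of YAP and TEAD had a median log2 ratio of 1.38, with 9 of 12 passing genes higher and 1 lower, of 13 in the list. Ankrd1, a nuclear ankyrin-repeat protein and classical YAP target, stood at 205 against 5.31 CPM (5.27). The matricellular genes Ccn2 and Ccn1 stood at 227 against 16.8 CPM (3.76) and at 331 against 114 CPM (1.54). The lower gene was Amotl1 (-0.91), whose position overlaps another gene on the same strand.

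**Figure D3:**
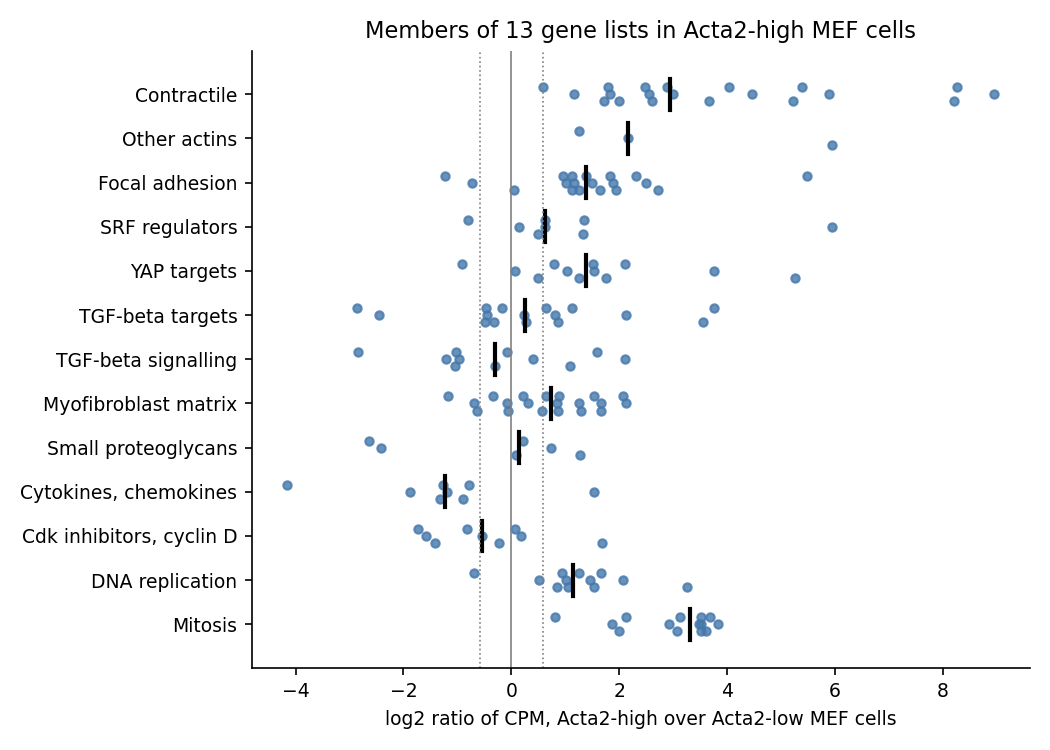
Log2 ratio of CPM in Acta2-high over Acta2-low MEF cells (x axis) for the passing members of 13 gene lists (y axis). Each point is a gene, black bars are list medians and dotted lines mark a 1.5-fold difference; the contractile median lies at 2.95 and that of the cytokine and chemokine list at -1.23.

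TGF-beta genes were mixed. Of 13 ligands, receptors and mediators, 11 passed, 3 were higher and 5 lower, with a median log2 ratio of -0.30. Among ligands, Inhba (activin A, 285 against 66.3 CPM, 2.10), Tgfb3 (84.0 against 28.0 CPM, 1.58) and Tgfb2 (20.7 against 9.65 CPM, 1.10) were higher and Tgfb1 (44.8 against 87.2 CPM, -0.96) was lower. All 3 receptors of the list were lower, with log2 ratios of -1.03 for Tgfbr1, -1.21 for Tgfbr2 and -2.85 for the co-receptor Tgfbr3, and so was the mediator Smad3 (-1.04). Of 18 TGF-beta targets, 16 passed, 7 were higher and 2 lower, with a median of 0.25. The 2 lower genes were Igfbp3 (-2.87), which binds insulin-like growth factors, and Tgfbi (-2.45), a matrix protein.

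Matrix genes were divided as well. Of 22 genes of myofibroblast matrix, 20 passed, 11 were higher and 3 lower, with a median log2 ratio of 0.74. The collagen cross-linking oxidases Loxl2 (2.13) and Lox (1.67), Col8a1 (2.07) and Col12a1 (1.67) had the larger ratios. Col1a1, the main fibrillar collagen, stood at 2854 against 1194 CPM (1.26, or 0.36 against all other MEF cells), and over the 10 bins it was highest in bin 9. Col3a1 was lower, at 479 against 749 CPM (-0.64), as were Cdh11 (-0.70) and Thbs2 (-1.17). Postn, Fbn1 and Cthrc1, which often mark activated fibroblasts, lay at -0.08, -0.06 and -0.35. Eln had 1 UMI in Acta2-high and 36 in Acta2-low cells, and Fap 49 and 72.

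Small proteoglycans, which bind and space collagen fibrils, were divided: of 9, 6 passed, 2 were higher and 2 lower, with a median log2 ratio of 0.15. Dcn (decorin) stood at 85.8 against 457 CPM (-2.41) and Lum (lumican) at 6.32 against 39.3 CPM (-2.64), while Podn (1.27) and Ogn (0.73) were higher and Bgn (biglycan) stood at 1608 against 1514 CPM. Dcn was lower at each of the 9 steps between bins. Of 12 general fibroblast markers, all passed, 3 were higher and 6 lower, with a median of -0.36. Besides the genes named, Pdgfra stood at 45.5 against 126 CPM (-1.47), Thy1 at 893 against 495 CPM (0.85) and Vim at 3623 against 3934 CPM. Of 14 genes of fibroblast progenitors and universal fibroblasts, 7 passed, with a median of -0.12. Fbn2 (2.92), Igfbp6 (1.15) and Thy1 were higher, and Ly6a (Sca-1, -2.05), Ly6c1 (-2.10) and Pdgfra were lower. Over all 12 measured members the median was -1.76, and 4 had a ratio above 1. Under the level limit, Cd34 had 23 against 187 UMIs and Penk 1 against 27, while Mfap5 had 60 against 24.

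**Figure D4:**
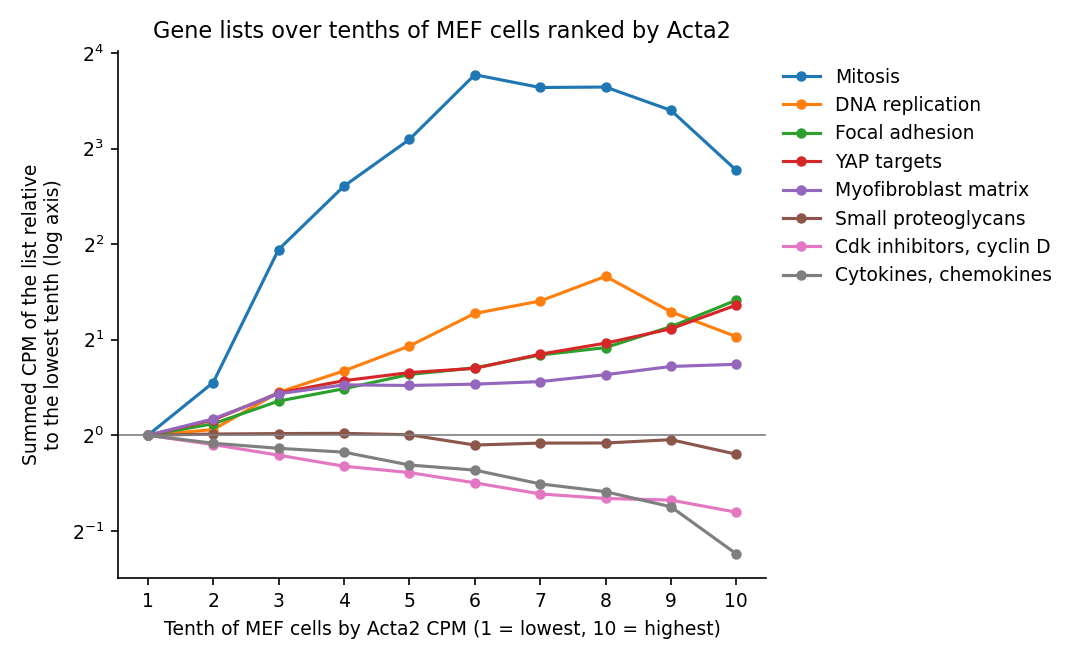
Summed CPM of 8 gene lists in 10 bins of MEF cells ordered by Acta2 (x axis), divided by the value in the lowest bin (y axis, log scale). The mitosis list was highest in bin 6 and lower in bin 10. The sum of the list of Cdk inhibitors, D cyclins and p53 targets was lower at each of the 9 steps. Its D cyclins, Ccnd1 and Ccnd2, differed by less than 1.5-fold between Acta2-high and Acta2-low cells.

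Few Acta2-low cells held a UMI of the proliferation genes Mki67 or Top2a, while the share of Acta2-high cells that did lay within counting error of that of the remaining culture. The mitosis list had 14 of 19 members above the level limit, all 14 higher in Acta2-high than in Acta2-low cells, with a median log2 ratio of 3.31. Mki67 stood at 13.7 against 0.965 CPM and Ube2c, which tags mitotic proteins for destruction, at 76.4 against 6.27 CPM. Against all other MEF cells the list median turned to -0.36, Mki67 to -0.45 and Top2a to -0.08. The summed list stood at 57.1 CPM in bin 1, was highest at 780 CPM in bin 6 and stood at 603 CPM in bin 9 and 390 CPM in bin 10. In cells thinned to 5000 UMIs, a Mki67 or Top2a UMI was found in 9.72% of Acta2-high (7.43% to 12.4%), 10.5% of the remaining (9.61% to 11.4%) and 1.04% of Acta2-low cells (0.383% to 2.25%). Without thinning the shares were 17.4%, 17.5% and 3.47%. For a UMI of any gene of the mitosis list, the thinned shares lay nearer to each other. They were 32.1% of Acta2-high (28.3% to 36.1%), 34.6% of the remaining (33.2% to 36.0%) and 21.4% of Acta2-low cells (18.1% to 24.9%). Of the DNA replication list 12 of 16 passed, with 10 higher, 1 lower and a median of 1.15, which became 0.06 against all other cells. In Acta2-high cells with a Mki67 or Top2a UMI, Tagln stood at 9450 CPM and Cnn1 at 695 CPM, against 11305 and 760 CPM in those without. When the ranking used only cells without such a UMI, the contractile median was 2.96.

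Cdkn2a and Cdkn2b, which encode Ink4 inhibitors of cell division, and 2 targets of p53 were lower in Acta2-high cells. Of 10 Cdk inhibitors, D cyclins and p53 targets, 9 passed, 4 were lower, 1 was higher and 4 differed by less than 1.5-fold. Cdkn2a, which encodes p16 and p19Arf, stood at 635 against 1702 CPM (-1.42). It ran from 0 to 2447 CPM with a median of 592 CPM in Acta2-high cells, and from 96.6 to 4764 CPM with a median of 1657 CPM in Acta2-low cells. Its neighbour Cdkn2b stood at 71.7 against 215 CPM (-1.59). A further Ink4 gene, Cdkn2c, differed little, at 10.1 against 8.98 CPM (0.17, -0.23 to 0.58). The p53 targets Mdm2 (112 against 370 CPM, -1.72) and Cdkn1a (p21, 495 against 875 CPM, -0.82) were lower, and Cdkn1b (p27, 17.1 against 5.31 CPM, 1.69) was higher. The D cyclins differed little, with Ccnd1 at 209 against 244 CPM (-0.22) and Ccnd2 at 862 against 826 CPM (0.06). The summed list was lower at each of the 9 steps, from 4426 CPM in bin 1 to 2535 CPM in bin 10.

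Most measured genes of the cytokine and chemokine list were lower. The list also holds genes that are neither, among them Mmp3, Ptgs2 and Il1rl1. The passing chemokines Ccl2, Ccl7, Cxcl1, Cxcl5 and Cxcl12 were all lower. Of 14 listed genes, 8 passed, 7 were lower and 1 was higher, with a median log2 ratio of -1.23. Cxcl12, which retains and guides blood-forming cells, stood at 78.1 against 286 CPM (-1.87), the monocyte attractant Ccl2 at 261 against 655 CPM (-1.33) and the matrix protease Mmp3 at 12.1 against 215 CPM (-4.16). The prostaglandin synthase Ptgs2 was higher, at 76.2 against 26.3 CPM (1.54).

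Among compared genes that reached 50 CPM or more in 1 of the groups, the 10 largest ratios belonged to Myh11, Actg2, Cnn1, Acta1, Fhl1, Tagln, Lims2, Ptprz1, Myl9 and Tgm2. Besides those given, Ptprz1, a receptor phosphatase better known from glia, stood at 158 against 3.67 CPM (5.43), and Tgm2, which cross-links proteins, at 72.9 against 1.83 CPM (5.31). The 10 lowest were Mgp (-5.93), Sfrp2 (-5.19), Ccl8 (-4.67), Mmp3, Pltp (-4.10), Col18a1 (-3.94), Gch1 (-3.86), Spp1 (-3.85), Cpxm1 (-3.60) and Agtr2 (-3.55). Mgp, an inhibitor of calcification, stood at 9.80 against 596 CPM, but 75.9% of Acta2-low cells had no Mgp UMI and the highest held 50351 CPM, so its sum rests on few cells. Spp1 (osteopontin), which overlaps another gene on the same strand, stood at 92.1 against 1326 CPM, with 35.1% of Acta2-low cells and 69.4% of Acta2-high cells at 0.

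Markers of other cell types were read in the same groups. Of 8 mature smooth muscle markers, 5 passed and all 5 were higher, their sum being 3036 against 26.3 CPM, but Myocd had 3 UMIs and Des stood at 6.32 CPM. Of 10 pericyte markers, 4 passed and the sum was 103 against 90.5 CPM. Mcam was higher (46.7 against 5.21 CPM), Notch3 was lower (3.08 against 22.4 CPM), and the defining genes Rgs5, Kcnj8 and Abcc9 had 2, 1 and 0 UMIs in Acta2-high cells. Of 8 epithelial markers, Krt18 passed and was higher (35.2 against 16.8 CPM, 1.07), Krt19 had 86 against 7 UMIs, and Cdh1 had 0 in both groups. Of 6 neuron markers, Tubb3 was higher (46.6 against 11.1 CPM, 2.07) and Stmn2 lower (3.81 against 27.2 CPM, -2.84). Of 7 cartilage markers, Sox9 (-1.58) and Runx2 (-0.61) were lower, and the passing endothelial marker Egfl7 was lower (-1.03). The passing adipocyte marker Lpl stood at 34.6 against 23.0 CPM. No immune, glial, mesothelial or erythroid marker passed. The immune list summed to 2.35 against 5.12 CPM, with Ptprc at 0 UMIs in both groups.

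The ranking was repeated in the iMPC library, which the choice of cells had not used. Its 974 Acta2-high cells had a median of 2168 CPM Acta2, under the MEF edge. All its 974 Acta2-low cells had 0 Acta2 UMIs and were taken by matrix order from 2246 such cells, and median depth differed, with 26213 against 15947 UMIs. Of 7380 compared genes, 9.86% were higher and 16.8% lower, and 42.9% had a ratio above 1. Together 26.6% passed 1.5-fold. Of the contractile list 19 passed, 11 were higher and 0 lower, with a median log2 ratio of 0.70. Tagln stood at 516 against 10.7 CPM (5.59), Actg2 at 100 against 1.39 CPM (6.17), Myl9 at 191 against 13.7 CPM (3.80) and Cnn1, under the level limit, at 19.2 against 0.206 CPM. Des stood at 1095 against 1487 CPM (-0.44) and Tpm1 at 2287 against 2909 CPM (-0.35). Skeletal muscle markers were mixed in these groups: of 10, all passed, 3 were higher and 2 lower. Myog, which starts muscle differentiation, stood at 1459 against 229 CPM (2.67), Actc1 at 7666 against 2165 CPM (1.82) and Myod1 at 281 against 81.7 CPM (1.78), while the progenitor genes Pax7 (-2.09) and Myf5 (-1.05) were lower. The part of these markers in the contractile ratios was not tested. Mylk (2.34), Cnn2 (1.82) and Pdlim7 (1.42) were higher in iMPC as well. Of the 10 genes with the largest MEF ratios, Fhl1 (-0.06), Acta1 (-0.18) and Tgm2 (-2.72) were not higher in iMPC. The other 7 were, from Myh11 (3.67) to Cnn1 (6.54), but some at low levels. Myh11 and Cnn1 lay under the level limit in iMPC. Lims2 stood at 6.76 against 0.464 CPM, and Ptprz1 at 0.808 against 0.0516 CPM (3.97, 1.34 to 9.34). The mitosis list, higher in all 14 passing genes in MEF, had 0 of 19 genes past 1.5-fold in either direction in iMPC. Whether the libraries differ in these ratios was not tested, since each is 1 library.

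**Figure D5:**
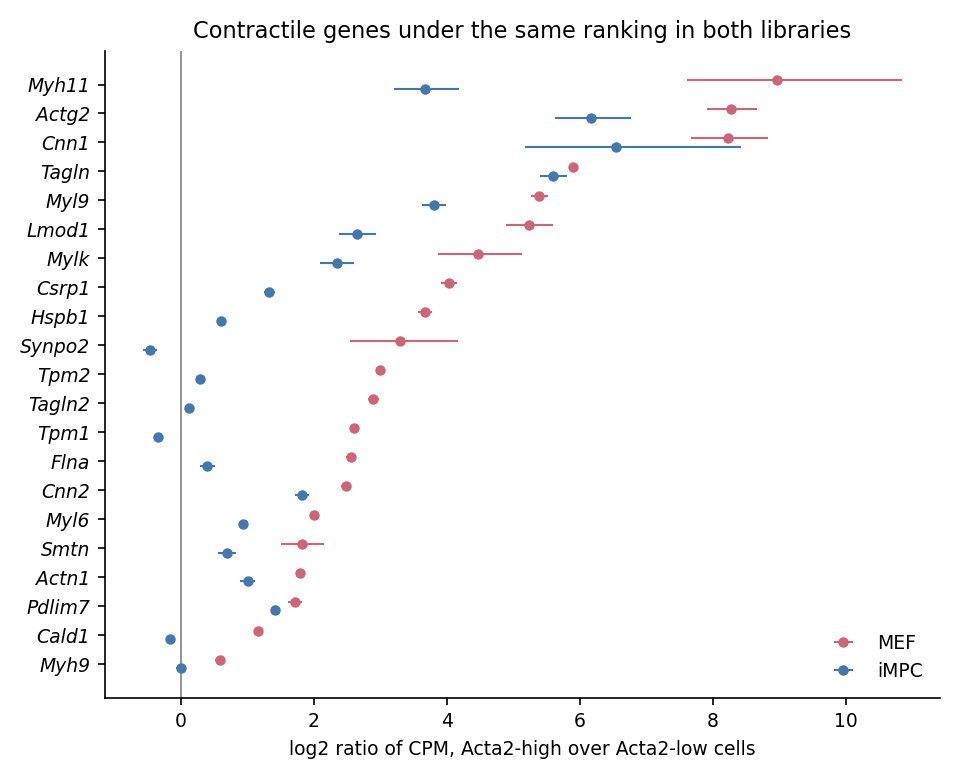
Log2 ratio of CPM in Acta2-high over Acta2-low cells (x axis) for 21 contractile genes (y axis) in MEF and iMPC, with exact 95% intervals for counting error. Tagln lies at 5.89 and 5.59, while Tpm1 lies at 2.60 in MEF and -0.35 in iMPC.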

How the data were processed

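The values deposited are whole UMI counts for each gene in each barcode, per the file headers, and no normalisation of them is recorded. The submitters' processing notes name Cell Ranger 4.0, Seurat 3.2.3 and the build GRCm38.p6. The MEF matrix lists 6113 barcodes, and how they were selected is not given in the sources used here; the iMPC matrix lists 6794880 uncalled barcodes. One treatment label of MEF repeats the iMPC text, and its own label (MEF media) was used.

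Cells were filtered and ranked as the report states, ties broken by matrix order. CPM are summed counts over the group total. Intervals are exact conditional (ratios) or Clopper-Pearson (shares) at 95%, and a group at 0 was set to a floor of 3 counts. Thinning drew 5000 UMIs per cell. Doublets were not removed: Scrublet's own threshold marked 2 cells (0.0347%) and so did not work, and an alternative removed the 288 highest scores, 14 of them Acta2-high and 3 Acta2-low. Bin 1 of the 10 bins holds 577 cells, the Acta2-low cells and 1 more.

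Of 26124 listed genes, 26090 were found in GENCODE M21 (GRCm38), which gives gene positions. The MEF matrix lists 24 mitochondrial RNA genes that the iMPC matrix does not, with 0.199% of its UMIs. Windows come from RefSeq. Software was Python 3.11.15, numpy 2.4.6, scipy 1.17.1, pandas 2.3.3 and scanpy 1.11.5. The comparison was tried on simulated group sums with counting error only. The 1.5-fold rule called 36.0% of genes set to a 1.5-fold change and 100% of those set to 2-fold. Variation between cells was not simulated, so this does not cover genes that are uneven among cells.

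Named genes are the list members with the largest ratios in each direction or at 0, and the 10 largest ratios in each direction with at least 50 CPM. The members, lists and rules were chosen with earlier results of these data known. Genes named outside the rule (per-cell, bin and split values, members with small ratios) were chosen after their values were seen. Alternatives covered depth, the share of cells ranked, filters, totals and scaling, doublets, cycling cells and the comparison group.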

Additional observations from a re-analysis of the deposited data

Results flagged for a closer look

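The cytokine and chemokine list had a median log2 ratio of -1.23 in MEF and 0.69 in iMPC, opposite directions under the same ranking among the genes above the level limit. Over all 12 measured members the iMPC median was -0.40 and that of MEF -1.26, the same direction, so the contrast holds only for the passing genes. The difference was not tested. In iMPC 5 genes passed, of which Ccl2 (0.94), Ccl7 (0.69) and Cxcl1 (0.85) were higher in Acta2-high cells and Ptgs2 (-2.56) and Mmp3 (-3.06) were lower. In MEF the ratios were -1.33 for Ccl2, -0.90 for Ccl7, -1.19 for Cxcl1, 1.54 for Ptgs2 and -4.16 for Mmp3, so that Mmp3 alone had the same sign in both. Ptgs2 and Mmp3 belong to the list but are enzymes, so its medians do not measure cytokines and chemokines alone. Only lists with at least 3 passing genes in both libraries were compared in this way, a limit set after the values were seen.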

How the results depend on the processing

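Of 16 alternatives, 15 left the contractile median within its tolerance (range over all 1.64 to 3.24). Against all other MEF cells it was 1.64, focal adhesion 0.71, other actins 0.95, YAP targets 0.45, DNA replication 0.062 and mitosis -0.36, with Mki67 at -0.45 and Top2a at -0.076, and 260 genes were higher and 497 lower. The DNA replication median was 0.75 with the highest and lowest 5% and 0.24 without cycling cells. Counts higher and lower were 375 and 326 at 50 CPM or more, 2016 and 3585 with no level limit and 436 and 424 at 2-fold, and 1815 were lower with a total without Acta2, mitochondrial and ribosomal protein genes. For list medians, 292 alternatives left the value within tolerance, 6 moved it and 1 reversed it, and for single genes 486, 238 and 2. The tolerance of a median spans ranked members and is wide, a choice made after values were seen, as were the gene minimum of 2000 and both iMPC alternatives, which moved no value. No paired analysis was possible because each group held 1 library. Depth limits Myh11, Cnn1 and Lims2, whose Acta2-low levels rest on 4, 26 and 12 UMIs.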

Other observations

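Of 11 posterior Hox genes, which record the body position of fibroblasts, 0 had a higher level in Acta2-high than in Acta2-low cells. Over all 7600 compared genes, 43.0% had a ratio above 1. With no level limit, 2016 genes were at least 1.5-fold higher and 3585 lower. Only Hoxc9 (52.2 against 67.4 CPM, log2 ratio -0.37, under 1.5-fold) and Hoxc10 (15.1 against 27.1 CPM, -0.84) passed the level limit, and the others rest on few UMIs. Hoxd13 had 1 UMI in Acta2-high and 35 in Acta2-low cells, Hoxd11 6 and 32, and Hoxa13 0 and 6. Of 9 antioxidant genes, 7 passed and 2 were lower: Hmox1 (38.0 against 177 CPM, -2.22) and Gsta4 (-1.81). Immediate early genes, which report fresh stimulation or handling, had a median of -0.03 over 13 passing genes, with Dusp1 (56.9 against 14.2 CPM), Klf2 (1.48) and Ier3 (0.74) higher and Klf4 (-0.63) lower.

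A group of Acta2-high cells had few genes for their UMIs. Under 2000 genes were found in 62 Acta2-high cells (10.8%), against 26 Acta2-low cells (4.51%) and 287 of the others (6.23%). The 62 had a median of 7114 UMIs, 1297 genes and a mitochondrial share of 4.38%. Over all compared genes their median log2 ratio to the remaining Acta2-high cells was -1.35. The choice of cells with few genes sets this value in part, so it is given only as a background for single genes. Their Tagln stood at 16000 CPM against 10738 CPM in the remaining Acta2-high cells and S100a6 at 29625 against 14248 CPM. Ccn1 stood at 2.08 against 344 CPM, Ankrd1 at 2.08 against 213 CPM, Sox4 at 2.08 against 284 CPM, and Col1a1 at 325 against 2956 CPM. The value of 2.08 CPM rests on 1 UMI for each of Ccn1, Ankrd1 and Sox4. Without all cells under 2000 genes the contractile median was 2.94. This group was noticed in the data and its cause was not tested.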
